A study of Mus musculus with 2 samples.

Results

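Wnt proteins are secreted, lipid-modified ligands, and the 45 genes described here are those for the ligands, their Frizzled and LRP receptors and the secreted or feedback proteins that adjust the signal, measured in the mouse spleen on the day of birth. They were taken by symbol and matched to the deposited gene tables by Ensembl identifier. The 45 genes are 19 Wnt ligands, 12 receptors (10 Frizzled genes with Lrp5 and Lrp6) and 14 modulators (the Sfrp family with Frzb, Wif1, Dkk1 to Dkk3, the 4 R-spondins and Axin2), and all 45 were found among the 43346 Ensembl genes of the tables. The series holds 1 group: whole spleen of the B6NCrl strain at 0 days after birth, with no treatment or genetic change named in the labels. Total RNA libraries were made from 1 spleen per pup (n = 2): replicate 1 from pup 2 and replicate 2 from pup 1, littermates of 1 pregnancy. The labels give both samples 1 shared donor identifier but describe different pups, and the libraries are taken here as coming from different animals. The sex of the pups was not collected, per the labels. With 1 group there is no contrast between conditions, so the levels are a description. The ratio of replicate 1 over replicate 2 measures how far the 2 libraries differed. With 1 library per pup, animal, dissection and library preparation cannot be told apart in it.

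A Wnt ligand binds a Frizzled receptor. With Lrp5 or Lrp6 as coreceptor the complex stops the degradation of beta-catenin, which then activates target genes with TCF and LEF factors, and without them it can act on cell shape and polarity. Secreted Frizzled-related proteins and Wif1 bind the ligands outside the cell, Dickkopf proteins such as Dkk1 block the LRP coreceptors, R-spondins keep receptors at the surface through Lgr receptors, and Axin2 is a target gene whose protein damps the pathway. Stromal cells are a known source of Wnt ligands and of their secreted inhibitors in many organs, and in the newborn spleen they lie among the blood cells that fill the tissue.

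The libraries held 33122187 and 32162543 estimated counts in replicates 1 and 2. Tlx1 and Nkx2-5, transcription factors of the spleen primordium, stood at 15.51 and 15.02 TPM in replicate 1, and at 24.05 and 20.54 TPM in replicate 2, so the spleen label was met by its patterning genes. TPM is transcript abundance normalized for transcript length and library total. Marker genes of acinar pancreas, an organ that touches the spleen, summed to 920.02 TPM in replicate 1 and 355.56 TPM in replicate 2, so acinar transcripts were in both libraries and in different amounts. In bulk tissue, fewer cells of a type and less RNA per cell cannot be told apart. With 1 library per pup no test between the libraries was possible. Intervals printed below are exact 95% Clopper-Pearson intervals, and limits are the level that 3 counts would give where a gene has 0. Neither covers more than counting error, as reads counted without molecular identifiers can repeat a molecule.

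The newborn spleen held transcripts for a small set of ligands, most receptors and a few abundant secreted modulators. A gene was called detected when its TPM was at least 1 in both libraries, which 17 of the 45 genes met, or 37.8%. Over all Ensembl genes of the tables the share was 31%, and over the 21474 protein-coding genes it was 55.6%. By role, 3 of 19 ligands (15.8%), 8 of 12 receptors (66.7%) and 6 of 14 modulators (42.9%) were detected. Only the receptor share was above the 55.6% of protein-coding genes. A further 4 genes, Wnt9a, Fzd5, Fzd8 and Sfrp4, reached 1 TPM in 1 library, and 24 reached it in neither. Wnt8b, Wnt16 and Rspo4 had 0 counts in both libraries, as did 19.8% of protein-coding genes.

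Summed over their genes, the modulators stood highest and the ligands lowest in both libraries. The modulators summed to 55.67 TPM in replicate 1 and 73.97 TPM in replicate 2 (mean 64.8 ± 12.9, SD, n = 2). The receptors summed to 24.73 TPM in replicate 1 and 32.83 TPM in replicate 2 (28.8 ± 5.73). The ligands summed to 13.99 TPM in replicate 1 and 18.42 TPM in replicate 2 (16.2 ± 3.13). The ranges of the 3 sums did not overlap. Each sum was higher in replicate 2, while the proportions between them were nearly the same in both libraries: the modulator sum was 3.98 times the ligand sum in replicate 1 and 4.02 times in replicate 2, and the receptor sum was 1.77 times in replicate 1 and 1.78 times in replicate 2.

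**Figure D1:**
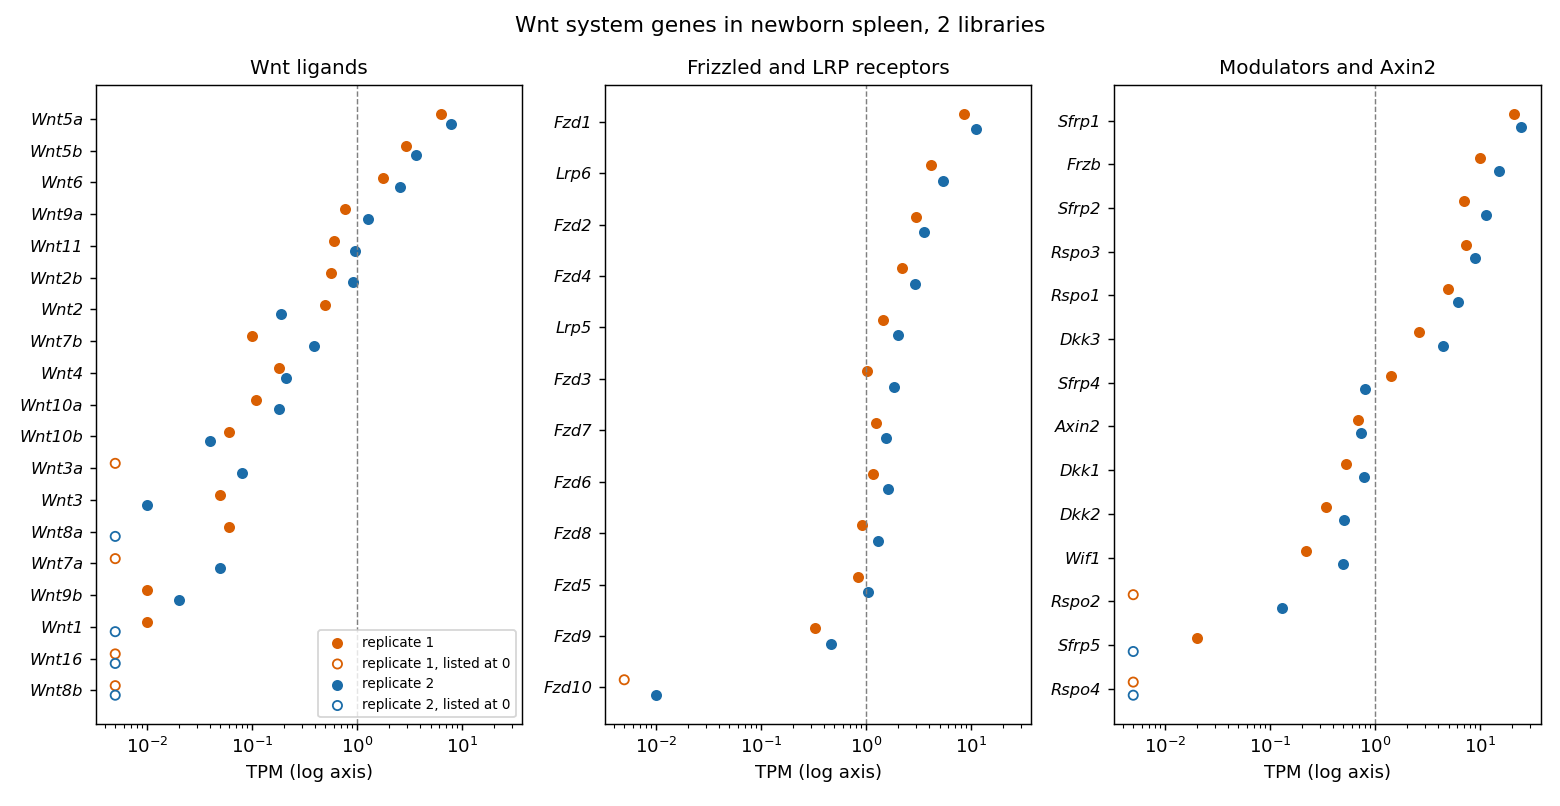
TPM (log axis) of the 45 genes in replicate 1 (orange) and replicate 2 (blue), by role and in order of mean TPM; open circles are genes listed at 0, and the dashed line marks 1 TPM. 3 ligands, 8 receptors and 6 modulators lie right of the line in both libraries, and Sfrp1 is the highest gene of all.

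Promoters are shown for 5 genes that the results turn on: Rspo1 and Rspo4, relatives at 5.52 ± 0.870 TPM and at 0 counts, Fzd1, the highest receptor, and Dkk1 and Axin2, which are known beta-catenin targets in other tissues. The sequences are from RefSeq on GRCm38.p6 and run, on the gene's own strand, from 250 bases before the listed start to 50 bases after it. Capitals mark matches, on either strand, to CTTTGAA or CTTTGAT, 2 forms of the motif bound by TCF and LEF factors, and to TATAAA, the TATA box; the 3 motifs do not overlap in these windows. The windows lie at chr4:124986180-124986479 (Rspo1, plus strand), chr2:151842677-151842976 (Rspo4, plus strand), chr5:4758167-4758466 (Fzd1, minus strand), chr19:30549447-30549746 (Dkk1, minus strand) and chr11:108920099-108920398 (Axin2, plus strand).
Rspo1: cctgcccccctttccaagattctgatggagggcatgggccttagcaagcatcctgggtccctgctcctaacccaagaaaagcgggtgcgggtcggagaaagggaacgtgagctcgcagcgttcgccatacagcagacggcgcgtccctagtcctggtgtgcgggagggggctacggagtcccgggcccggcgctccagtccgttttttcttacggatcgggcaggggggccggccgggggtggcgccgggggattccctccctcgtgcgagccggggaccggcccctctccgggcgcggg
Rspo4: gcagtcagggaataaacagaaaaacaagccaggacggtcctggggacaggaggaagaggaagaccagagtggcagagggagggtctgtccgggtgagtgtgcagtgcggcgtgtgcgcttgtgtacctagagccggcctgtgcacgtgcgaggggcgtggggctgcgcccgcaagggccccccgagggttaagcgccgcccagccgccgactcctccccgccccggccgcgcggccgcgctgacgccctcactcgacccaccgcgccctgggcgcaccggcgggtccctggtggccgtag
Fzd1: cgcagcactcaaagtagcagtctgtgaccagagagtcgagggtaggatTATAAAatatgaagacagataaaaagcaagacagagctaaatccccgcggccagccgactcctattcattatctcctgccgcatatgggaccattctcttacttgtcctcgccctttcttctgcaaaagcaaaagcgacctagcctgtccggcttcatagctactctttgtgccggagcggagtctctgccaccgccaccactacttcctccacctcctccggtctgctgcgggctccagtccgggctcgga
Dkk1: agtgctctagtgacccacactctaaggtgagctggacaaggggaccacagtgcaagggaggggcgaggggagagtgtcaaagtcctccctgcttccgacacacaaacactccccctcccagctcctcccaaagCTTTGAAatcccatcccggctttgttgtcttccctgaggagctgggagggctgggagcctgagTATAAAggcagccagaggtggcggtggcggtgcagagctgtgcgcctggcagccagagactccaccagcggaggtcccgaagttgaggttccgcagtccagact
Axin2: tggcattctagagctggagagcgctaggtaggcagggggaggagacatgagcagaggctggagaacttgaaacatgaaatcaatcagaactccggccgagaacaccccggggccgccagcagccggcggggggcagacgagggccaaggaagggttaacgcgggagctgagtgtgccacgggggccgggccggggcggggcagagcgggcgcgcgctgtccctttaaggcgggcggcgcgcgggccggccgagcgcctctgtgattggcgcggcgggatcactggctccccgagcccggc

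In the Dkk1 window a CTTTGAA match lay 117 bases before the start and a TATAAA match 54 bases before it. The Fzd1 window held a TATAAA match 202 bases before the start. The windows of Rspo1, Rspo4 and Axin2 held none of the 3 words, which says only that these letters are not in these 300 bases. RefSeq windows were matched for 30 of the 45 genes, using the first listed start of each. Over these 30, 2 (Dkk1 and Wnt11) held CTTTGAA or CTTTGAT, or 6.67%, against 8.65% of all 32851 promoters in the table, and 5 held TATAAA, or 16.7%, against 13.6%. The 32851 take in every listed start of a gene, so the 2 sets are not quite alike. Outside the 30, listed start 3 of Wnt5b held CTTTGAT 71 bases before it. Dkk3, Fzd8, Wnt8a, Wnt5a, Sfrp1, Fzd3, Wnt10a, Sfrp4, Lrp6, Fzd6, Rspo3, Rspo2, Lrp5, Wnt7b and Fzd2 had no entry in the table.

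The shared feature of these promoters was their base composition. The median GC content was 70.3% over the 30 windows, against 52.7% over all promoters, counted at every listed start. The median ratio of observed to expected CpG was 0.814, against 0.384. Rspo1 and Rspo4 were alike in both, with a GC content of 69.0% and 71.0% and a CpG ratio of 0.818 and 0.825, although Rspo1 was detected and Rspo4 had no counts. The 8 detected genes with a window had a median CpG ratio of 0.749, and the 22 others one of 0.843, so a CpG-rich promoter was found in detected and undetected genes alike. Among the 30 first listed starts, the lowest CpG ratios were those of Dkk1 at 0.327, Wnt8b at 0.345 and Wnt16 at 0.402. Later listed starts of Wnt5b were lower, at 0.194 (start 2) and 0.314 (start 3).

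**Figure D2:**
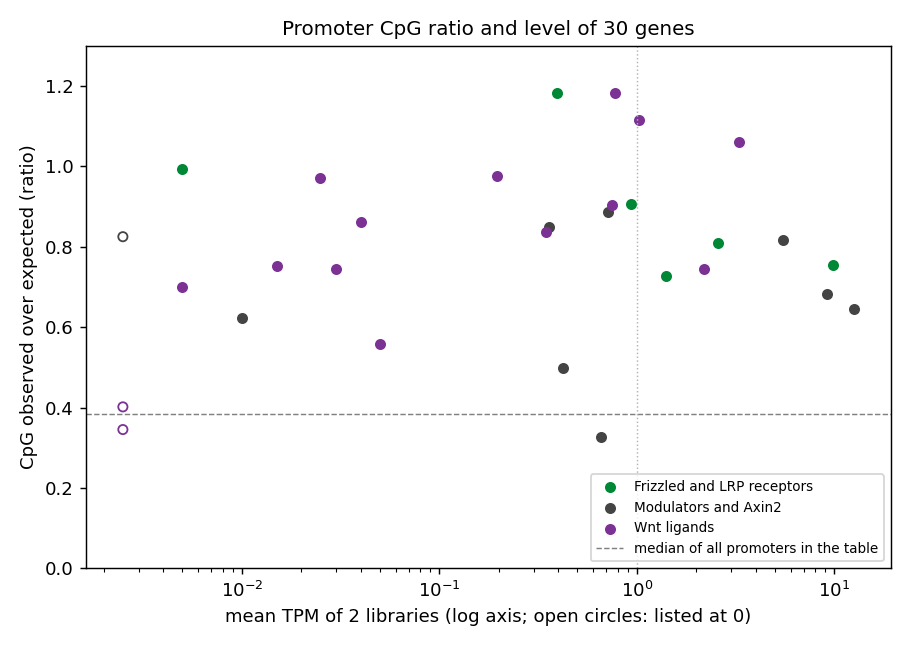
Ratio of observed to expected CpG in the promoter window of 30 genes against their mean TPM (log axis); open circles are genes listed at 0, the dashed line is the median of all promoters in the table (0.384) and the dotted line marks 1 TPM. Most genes lie above the dashed line at every level, and Dkk1 and Wnt8b lie below it.

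Among the ligands, Wnt5a and Wnt5b, close relatives best known for signalling without beta-catenin, together held more than the other 17 ligands. Wnt5a (ENSMUSG00000021994.10, chr14:28504750-28527448) had 6.25 TPM in replicate 1 and 7.87 TPM in replicate 2, from 1014.67 and 1148.89 estimated counts. Its mean of 7.06 ± 1.15 TPM was above that of 62.9% of protein-coding genes. Wnt5b (chr6:119432531-119544347) had 2.94 TPM in replicate 1 and 3.66 TPM in replicate 2. The sum of the pair was 65.7% of the ligand sum in replicate 1 and 62.6% in replicate 2. Wnt5a was above Wnt5b, and Wnt5b above all further ligands, with ranges that did not overlap.

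Wnt6, a ligand of epithelial and mesenchymal tissues (chr1:74771892-74785322), came next. It had 1.78 TPM in replicate 1 and 2.58 TPM in replicate 2, and was the last of the 3 detected ligands. Wnt9a, known from joint formation (chr11:59306928-59333552), had 0.77 TPM in replicate 1 and 1.27 TPM in replicate 2, so it reached 1 TPM in replicate 2 alone. Wnt11, a ligand of cell movement (chr7:98835112-98855195), had 0.60 TPM in replicate 1 and 0.95 TPM in replicate 2. Its range overlapped that of Wnt9a, though Wnt9a was above it in both libraries. In both, more of the Wnt11 TPM was assigned to transcripts annotated for nonsense-mediated decay than to coding ones. Wnt2b, an inducer of the lung with Wnt2, was at 0.57 TPM in replicate 1 and 0.92 TPM in replicate 2. Its range overlapped that of Wnt11, which was slightly above it in both libraries.

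The other 13 ligands were at or below 0.50 TPM in both libraries. Wnt4, known from kidney and gonad, had 0.18 TPM in replicate 1 and 0.21 TPM in replicate 2. Wnt10a, a ligand of hair and teeth, had 0.11 TPM in replicate 1 and 0.18 TPM in replicate 2. Wnt10b, Wnt3, Wnt3a, Wnt7a, Wnt8a, Wnt9b and Wnt1 rested on at most 6 counts in a library. Wnt1, Wnt3, Wnt3a, Wnt8a and Wnt8b, ligands that are classic activators of beta-catenin, summed to 0.12 TPM in replicate 1 and 0.09 TPM in replicate 2. Wnt8b (chr19:44493472-44514273), a forebrain ligand, had 0 counts, which allows up to 0.0290 TPM in replicate 1 and 0.0308 TPM in replicate 2. Wnt16 (chr6:22288227-22298522), known from bone, had 0 counts, with limits of 0.0640 TPM in replicate 1 and 0.0678 TPM in replicate 2. The posterior mean TPM of Wnt16, a second estimate deposited by the authors, was above these limits, at 0.30 in replicate 1 and 0.32 in replicate 2. Neither Wnt8b nor Wnt16 had a count in either library.

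Several ligands lie side by side in the genome, and the pairs differed in level. Wnt6 ends 6.193 kb before Wnt10a on the same strand of chromosome 1, and its mean was 2.18 TPM against 0.145 TPM for Wnt10a. Wnt9a and Wnt3a start 16.175 kb apart on opposite strands of chromosome 11, at a mean of 1.02 and 0.040 TPM. Wnt3 and Wnt9b on chromosome 11, and Wnt1 and Wnt10b on chromosome 15, also lie within 100 kb of each other, and all 4 were at or below 0.06 TPM in both libraries.

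The receptors were more evenly spread, and Fzd1 led them. Fzd1 (ENSMUSG00000044674.5, chr5:4753839-4758035) had 8.53 TPM in replicate 1 and 11.07 TPM in replicate 2, or 34.5% of the receptor sum in replicate 1 and 33.7% in replicate 2. Lrp6, the coreceptor for beta-catenin signalling (chr6:134446476-134566965), followed with 4.12 TPM in replicate 1 and 5.44 TPM in replicate 2. Fzd2, a close relative of Fzd1 (chr11:102604396-102608058), had 2.96 TPM in replicate 1 and 3.52 TPM in replicate 2. The ranges of these 3 genes did not overlap, so their order held in both libraries.

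Fzd4, a receptor also for Norrin (chr7:89404355-89413134), had 2.19 TPM in replicate 1 and 2.94 TPM in replicate 2, below Fzd2 in both. Lrp5, the second coreceptor (chr19:3584828-3686564), had 1.44 TPM in replicate 1 and 2.03 TPM in replicate 2. Lrp5 and Lrp6 together summed to 5.56 TPM in replicate 1 and 7.47 TPM in replicate 2. Below Fzd4 the receptors were close: from Lrp5 through Fzd3, Fzd7, Fzd6 and Fzd8 to Fzd5, each neighbour overlapped the next, with values of 0.83 to 1.44 TPM in replicate 1 and 1.04 to 2.03 TPM in replicate 2. Within this run, Lrp5 was above Fzd3, Fzd6 above Fzd8 and Fzd8 above Fzd5 in both libraries. Fzd3 and Fzd6, receptors of planar polarity, and Fzd7, another close relative of Fzd1, were detected, while Fzd8 and Fzd5 reached 1 TPM in replicate 2 alone. Fzd9 had 0.33 TPM in replicate 1 and 0.46 TPM in replicate 2. Fzd10 had 0 counts in replicate 1 and 1 in replicate 2, so it alone of the Frizzled genes was near the limit of detection.

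Among the modulators, 3 genes of the secreted Frizzled-related family, Sfrp1, Frzb and Sfrp2, had the highest means. Sfrp1 (ENSMUSG00000031548.7, chr8:23411502-23449632), a decoy that binds Wnt ligands, had 20.79 TPM in replicate 1 and 24.52 TPM in replicate 2, above 80.5% of protein-coding genes on its mean of 22.7 ± 2.64 TPM. Frzb (chr2:80411970-80447625), a member of the same family, had 9.90 TPM in replicate 1 and 15.21 TPM in replicate 2. Sfrp2 (chr3:83766321-83774316) had 6.95 TPM in replicate 1 and 11.40 TPM in replicate 2. Sfrp1 was separate from both, while the ranges of Frzb and Sfrp2 overlapped, with Frzb above Sfrp2 in both libraries. Sfrp2 was not separable from Rspo3, described next, which was above it in replicate 1 and below it in replicate 2. With Sfrp4 and Sfrp5 the family summed to 39.08 TPM in replicate 1 and 51.94 TPM in replicate 2, or 2.79 times the sum of all ligands in replicate 1 and 2.82 times in replicate 2.

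The R-spondins were split into a detected and an undetected pair. Rspo3 (chr10:29452416-29535867) had 7.29 TPM in replicate 1 and 8.85 TPM in replicate 2. Rspo1 (chr4:124986430-125009099) had 4.90 TPM in replicate 1 and 6.13 TPM in replicate 2, below Rspo3 in both. Rspo2 had 0 counts in replicate 1 and 12 counts, 0.13 TPM, in replicate 2. Rspo4 (chr2:151842927-151874668) had 0 counts, which allows up to 0.0419 TPM in replicate 1 and 0.0444 TPM in replicate 2. Rspo1 and Rspo3 together summed to 12.19 TPM in replicate 1 and 14.98 TPM in replicate 2, or 87.1% of the ligand sum in replicate 1 and 81.3% in replicate 2.

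Dkk3 (chr7:112116017-112159057), the divergent member of the Dickkopf family, had 2.62 TPM in replicate 1 and 4.39 TPM in replicate 2 and was the last of the 6 detected modulators. Dkk1, the LRP antagonist, had 0.53 TPM in replicate 1 and 0.79 TPM in replicate 2. Dkk2, its relative, had 0.34 TPM in replicate 1 and 0.51 TPM in replicate 2. Both stayed under 1 TPM. Sfrp4 (chr13:19623104-19632994) had 1.42 TPM in replicate 1 and 0.81 TPM in replicate 2, on either side of the threshold. Sfrp5 had 1 count in replicate 1 and 0 in replicate 2.

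Axin2, the feedback gene often read as a sign of beta-catenin activity, was low and nearly the same in both libraries. It had 0.69 TPM in replicate 1 and 0.73 TPM in replicate 2, from 48 and 50 counts. The authors' posterior mean, a second deposited estimate of TPM, was 1.01 in replicate 1 and 1.03 in replicate 2, so under that estimate Axin2 crossed the threshold. A noncoding transcript, Axin2-203, held 50.7% of its TPM in replicate 1 and 49.3% in replicate 2, while its longest coding transcript, Axin2-201, held 26.1% in replicate 1 and 28.8% in replicate 2. By estimated counts, which are not divided by length, the order was the other way. Axin2-201 held 48.4% of counts in replicate 1 and 51.7% in replicate 2, and Axin2-203 held 44.8% in replicate 1 and 41.4% in replicate 2.

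The leading genes were mostly counted as 1 transcript. Fzd1, Sfrp1 and Rspo3 have 1 annotated transcript each, and Rspo1-201 held all of the Rspo1 level. Frzb-201 held 95.3% ± 1.80 of Frzb and Sfrp2-201 held 98.9% ± 1.49 of Sfrp2 (SD, n = 2). Wnt5a was the exception among genes of at least 5 TPM. Its longest coding transcript, Wnt5a-201 of 7009 nt, held 51.1% ± 4.93 of its TPM, and Wnt5a-202 of 3650 nt held 41.0% ± 3.92. By estimated counts, which are not divided by length, Wnt5a-201 held 73.3% in replicate 1 and 67.0% in replicate 2.

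Between the libraries, nearly every gene of the system with enough counts was higher in replicate 2. For this the estimated counts were scaled by the trimmed mean of M-values (TMM), and ratios are given on the log2 scale, replicate 1 over replicate 2, wherever the mean count reached 20. Of the 45 genes, 31 entered, and 29 of these were higher in replicate 2, against 51.1% of the 15506 genes of all kinds that entered. The 2 that were higher in replicate 1 were Wnt2 and Sfrp4. The median log2 ratio of the 31 was -0.28, against -0.01 over all genes, so the common difference was small. At a mean count of at least 100, 20 of 20 were higher in replicate 2, against 49.1% of all genes at that depth, and at 20 to 100 counts 9 of 11 were, against 58.7%.

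The well-counted genes differed by less than 2-fold. Among those with a mean count of 100 or more, Fzd3 was furthest from 0, at 129 counts in replicate 1 and 225 counts in replicate 2, a log2 ratio of -0.74 (interval -1.07 to -0.43). Dkk3 followed at -0.60 (interval -0.83 to -0.38) and Wnt9a at -0.58 (interval -1.02 to -0.17). Sfrp2 was at -0.55 (interval -0.73 to -0.37) and Frzb at -0.45 (interval -0.57 to -0.33). These intervals lay below 0, but each is for 1 gene, the genes were picked as furthest from 0, and repeated molecules would widen them. The highest genes of each role were closer: Wnt5a was at -0.12 (interval -0.25 to 0.00), Fzd1 at -0.24 (interval -0.35 to -0.12) and Sfrp1 at -0.10 (interval -0.17 to -0.02). Lrp6 was at -0.06, Rspo3 at -0.14 and Rspo1 at -0.18, each with an interval that spanned 0.

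A 2-fold difference was reached by 3 of the 31 genes, Wnt2, Wnt7b and Wif1, against 1.78% of all genes. All 3 had a mean count of 20 to 100, where 6.49% of all genes were 2-fold apart, and none of the 20 with a mean count of at least 100 was, against 0.582%. Wnt7b, known from lung and kidney (chr15:85535437-85582473), had 10 counts in replicate 1 and 38 in replicate 2, which is 0.10 TPM in replicate 1 and 0.39 TPM in replicate 2, a log2 ratio of -1.69 (interval -3.04 to -0.84). Wif1, a secreted Wnt binder (chr10:121033960-121100650), had 13 counts in replicate 1 and 30 in replicate 2, which is 0.22 TPM in replicate 1 and 0.50 TPM in replicate 2, a log2 ratio of -1.04 (interval -2.21 to -0.17). With the spike-in totals or the deposited TPM as the scale, Wif1 was under 2-fold.

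Wnt2 (chr6:17988940-18030585) went the other way, with 28 counts in replicate 1 and 12 in replicate 2, which is 0.50 TPM in replicate 1 and 0.19 TPM in replicate 2, a log2 ratio of 1.15 (interval 0.26 to 2.39). In replicate 1, 66.3% of these counts were assigned to a transcript, ENSMUST00000156317, that held none in replicate 2 and has no name in the annotation used. The coding transcript Wnt2-201 alone stood at 0.14 TPM in replicate 1 and 0.19 TPM in replicate 2, so the direction of Wnt2 rested on that transcript. Sfrp4 had 74 counts in replicate 1 and 40 in replicate 2, a log2 ratio of 0.91 (interval 0.37 to 1.54), just under 2-fold.

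**Figure D3:**
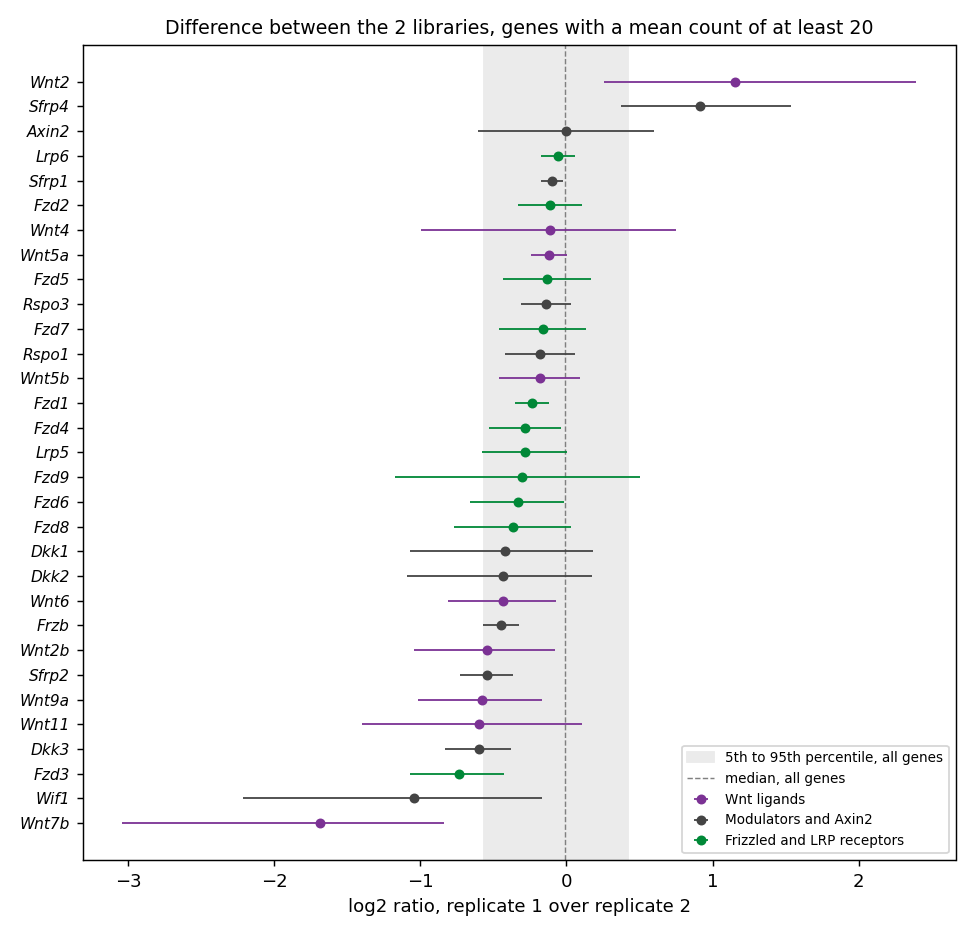
log2 ratio of replicate 1 over replicate 2 for the 31 genes that reached a mean count of 20, with exact 95% intervals for counting error; the band spans the 5th to 95th percentile of all 15506 genes (-0.56 to 0.42) and the dashed line their median (-0.01). 29 points lie left of 0, Axin2 almost on it, and the widest intervals belong to genes with few counts.

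Marker lists of cell types differed between the libraries too, in both directions. All 8 stroma markers were higher in replicate 2, with a summed level of 1000.7 TPM in replicate 1 and 1424.28 TPM in replicate 2 and a median log2 ratio of -0.34. All 7 endothelium markers were too, with sums of 272.9 TPM in replicate 1 and 339.03 TPM in replicate 2 and a median of -0.22, and so were all 7 spleen patterning genes, with sums of 205.13 TPM in replicate 1 and 265.17 TPM in replicate 2 and a median of -0.31. The 5 erythroid markers were higher in replicate 1, with sums of 2200.21 TPM in replicate 1 and 1961.7 TPM in replicate 2, as were 6 of the 7 acinar markers (Pnlip, the seventh, had 5 counts in replicate 1 and 0 in replicate 2). Smooth muscle markers were higher in replicate 1 in 4 of 5, with sums of 387.72 TPM in replicate 1 and 304.86 TPM in replicate 2. Mesothelium, the covering layer of the spleen, summed to 163.66 TPM in replicate 1 and 179.12 TPM in replicate 2, with 4 of 7 markers higher in replicate 2. The part of these cell types in the ratios of the Wnt system genes was not tested.

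Some markers of other neighbouring organs were present as well, and the sums of these lists were higher in replicate 1. Liver markers summed to 24.08 TPM in replicate 1 and 12.3 TPM in replicate 2, and endocrine pancreas markers to 27.04 TPM in replicate 1 and 14.04 TPM in replicate 2. In replicate 1 both sums exceeded that of the ligands, at 172% and 193% of it, and in replicate 2 they were 66.8% and 76.2% of it. Stomach and gut markers summed to 11.54 TPM in replicate 1 and 9.81 TPM in replicate 2, with Cdx2 at 0 counts in both. Only 2 of the 8, Muc6 and Fabp1, reached 1 TPM in both libraries, and 5 reached it in neither. By TPM, 5 of these 8 markers were higher in replicate 1 and 2 in replicate 2. Muc6, the highest of them, was among the latter, at 5.46 TPM in replicate 1 and 6.09 TPM in replicate 2. None of the 5 markers of glia and neurons reached 1 TPM, and they summed to 1.57 TPM in replicate 1 and 1.64 TPM in replicate 2.

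The rest of the pathway was broadly present. Of 82 further pathway genes that were matched, 65 were detected, or 79.3%, against 31% of all Ensembl genes and 55.6% of protein-coding genes. Of these 82, 73 reached a mean count of 20, and none of the 73 was 2-fold apart between the libraries, against 1.78% of all genes. Among the 73, 50 were higher in replicate 2, against 51.1% of all genes, and 23 in replicate 1, with a median log2 ratio of -0.11. The median level was 8.69 TPM in the secretion list, 7.73 TPM in the cytoplasmic beta-catenin list and 7.63 TPM in the nuclear list. It was 2.42 TPM in the polarity list, 2.39 TPM among the other receptors, 2.28 TPM among the target genes and 1.13 TPM among the other extracellular modulators, nearer to the 1.42 TPM of the Frizzled and LRP receptors.

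For secretion of the ligands, 3 of 6 genes were detected, or 50%, against 55.6% of protein-coding genes. Wls, the carrier that takes Wnt proteins to the surface, had 15.05 TPM in replicate 1 and 18.16 TPM in replicate 2. Vps35, a retromer subunit that recycles Wls and many other cargoes, had 77.97 TPM in replicate 1 and 76.61 TPM in replicate 2. Vps26a, of the same complex, had 29.56 TPM in replicate 1 and 34.62 TPM in replicate 2. The carrier and the retromer were thus present in both libraries, at levels above every ligand. Porcn, the enzyme that adds the lipid to Wnt proteins, stood under the threshold, at 0.70 TPM in replicate 1 and 0.85 TPM in replicate 2. Notum, which removes the lipid, had 1 count in each library.

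Of the other receptors and coreceptors, 13 of 15 were detected, or 86.7%, against 55.6% of protein-coding genes. Mesd, the chaperone of Lrp5 and Lrp6, averaged 49.7 ± 0.368 TPM (SD, n = 2). Ptk7, a coreceptor of planar polarity, had 17.44 TPM in replicate 1 and 24.14 TPM in replicate 2. Ryk, a Wnt receptor outside the Frizzled family, had 6.93 TPM in replicate 1 and 6.97 TPM in replicate 2. These were the 3 highest of the list. Ror2, a receptor of Wnt5a, had 1.82 TPM in replicate 1 and 2.09 TPM in replicate 2, and its relative Ror1 was detected as well.

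The receptors and ligases that read R-spondins were measured beside Rspo1 and Rspo3. Lgr6 had 5.47 TPM in replicate 1 and 7.36 TPM in replicate 2. Lgr4 had 2.32 TPM in replicate 1 and 2.46 TPM in replicate 2. Lgr6 held 67.0% of the summed Lgr level in replicate 1 and 71.1% in replicate 2, since Lgr5 was at 0.38 TPM in replicate 1 and 0.53 TPM in replicate 2. Znrf3 and Rnf43, the ubiquitin ligases that remove Frizzled receptors from the surface, were both detected at above 2 TPM. Norrin, the other ligand of Fzd4, was not seen: its gene Ndp had 0 counts in both libraries, while Tspan12, its coreceptor, had 6.18 TPM in replicate 1 and 6.99 TPM in replicate 2.

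Among other extracellular modulators 5 of 9 were detected, or 55.6%, the same share as among protein-coding genes (55.6%). Gpc3, a glypican that binds Wnt and Hedgehog proteins, led with 122.11 TPM in replicate 1 and 158.02 TPM in replicate 2. That was more than all 45 Wnt system genes summed, which came to 94.39 TPM in replicate 1 and 125.22 TPM in replicate 2. Gpc4, another glypican, had 14.17 TPM in replicate 1 and 15.26 TPM in replicate 2. Dkkl1, a Dickkopf-like gene, had 5.84 TPM in replicate 1 and 6.53 TPM in replicate 2. The LRP antagonists Dkk4 and Sost were at or near 0, with 1 count of Dkk4 in each library and 0 counts of Sost in replicate 1 and 3 in replicate 2.

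The intracellular lists were nearly complete, with 21 of 22 cytoplasmic genes (95.5%) and 13 of 14 nuclear genes (92.9%) detected, against 55.6% of protein-coding genes. Csnk1a1, the kinase that primes beta-catenin for degradation, had 110.84 TPM in replicate 1 and 121.97 TPM in replicate 2. Ctnnb1, the gene of beta-catenin, had 70.36 TPM in replicate 1 and 80.23 TPM in replicate 2. Csnk1d, a related kinase, had 39.58 TPM in replicate 1 and 44.74 TPM in replicate 2. These were the 3 highest cytoplasmic genes, and each was well above any receptor. In the nuclear list the corepressor Ctbp1 had 157.13 TPM in replicate 1 and 160.41 TPM in replicate 2. Tcf7l2 had 21.50 TPM in replicate 1 and 24.65 TPM in replicate 2, and the corepressor Tle2 had 18.06 TPM in replicate 1 and 25.78 TPM in replicate 2. Tcf7l2 was the highest of the 4 TCF and LEF genes in both libraries. Tcf7l1 came next at 4.57 TPM in replicate 1 and 6.63 TPM in replicate 2, and Lef1 and Tcf7 were below 3 TPM.

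Of the planar cell polarity genes 7 of 10 were detected, or 70%, against 55.6% of protein-coding genes. Vangl1, a core membrane protein of the polarity complex, led with 37.22 TPM in replicate 1 and 29.47 TPM in replicate 2. Prickle1, its cytoplasmic partner, had 7.42 TPM in replicate 1 and 9.22 TPM in replicate 2. Daam1, a formin downstream of Frizzled, had 6.89 TPM in replicate 1 and 6.63 TPM in replicate 2. Vangl1 was the highest polarity gene in both libraries.

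Of 13 common beta-catenin target genes 8 were detected, or 61.5%, near the 55.6% of all protein-coding genes. Myc, which many pathways control, held most of their sum, with 99.63 TPM in replicate 1 and 84.47 TPM in replicate 2. Ccnd1, a cyclin with many inputs as well, had 12.22 TPM in replicate 1 and 13.83 TPM in replicate 2. Nkd1, a feedback inhibitor, had 4.87 TPM in replicate 1 and 6.02 TPM in replicate 2. The other 5 detected targets, Lef1, Tcf7, Rnf43, Znrf3 and Ascl2, had means of 1.42 to 2.44 TPM, above the 0.71 TPM of Axin2. The 5 that were not detected, Lgr5, Sp5, Notum, Cdx1 and T, were below Axin2, and T had 0 counts in both libraries.

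**Figure D4:**
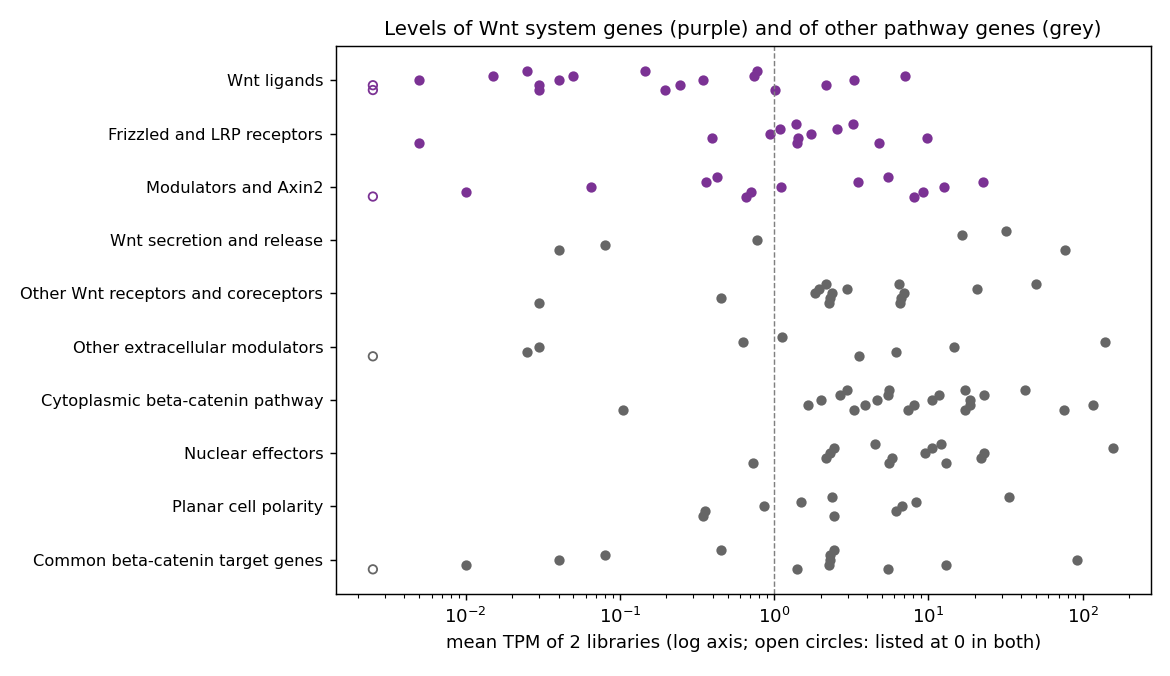
Mean TPM of 2 libraries (log axis) for the 45 Wnt system genes by role (purple) and for 7 lists of other pathway genes (grey, a gene may be in more than 1 list); open circles are genes listed at 0 in both libraries and the dashed line marks 1 TPM. Most ligands lie to the left of 1 TPM, while the cytoplasmic and nuclear lists lie almost wholly to the right of 1 TPM.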

How the data were processed

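Total RNA longer than 200 nt from 2 newborn spleens (10 ng of input, with spike-ins) was sequenced, per the labels. The authors deposited estimated counts (expected counts) and TPM for each gene and transcript on mm10 with GENCODE M4 models, per the listing that accompanies each sample. The columns are named as RSEM names them. No header or label names the aligner, the software versions or the strand setting used in counting. Posterior mean TPM and, as a score, the bounds of a credibility interval were deposited by the authors as well (level not stated in the files), and these bounds were used for no result. Names and coordinates came from GENCODE M21, matched by identifier without version (42462 of 43346 genes).

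The deposited TPM served as level, summarized as mean and SD (n = 2). TPM is relative to all features, so it moves with the most abundant transcripts. For ratios, expected counts were rounded, spike-ins and numbered short features were left out, and TMM scaling in edgeR 4.0.16 (R 4.3.3) gave log2 CPM with a prior count of 2. The ratio step was tested on simulated counts. No p-value was computed. Alternatives were other TPM estimates and thresholds, other scalings (by library size, by spike-in totals, by DESeq2 1.42.0 size factors and from the TPM values), other filters and prior counts, and each library alone. Promoter windows came from RefSeq. Python 3.11.15 with pandas 2.3.3, scipy 1.17.1 and matplotlib 3.10.9 did the rest.

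The members, lists and thresholds were chosen with earlier results of these data known. Full values are given for the 5 highest ligands, 5 highest receptors and 7 highest modulators by mean TPM (Axin2 and further members are described as well), every member at least 2-fold apart, every member at 0 counts, and the 3 highest genes of each pathway list; other pathway genes were named for their role beside a member, after their values were seen. Tle5 was not matched and was not analysed here.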

Additional observations from a re-analysis of the deposited data

How the results depend on the processing

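No paired analysis was possible because the series has 1 group. The number of detected genes was 17 with the main settings, 31 with a threshold of at least 10 expected counts in both libraries, and between 12 and 25 with the other thresholds and TPM estimates. In a single library it was 18 to 20, with the pathway genes at 65 to 66. The sums in single libraries were 13.99 to 18.42 TPM for ligands, 24.73 to 32.83 TPM for receptors and 55.67 to 73.97 TPM for modulators. Of the 17 leading genes, 15 to 17 kept their rank within their role when 1 library was left out. The number of genes 2-fold apart was 3 with the main settings, 8 with no filter on the mean count and 0 at a mean count of at least 100, where fewer genes enter. Scaling by library size moved the median log2 ratio of all genes to -0.11 and the deposited TPM moved it to -0.14. Under these, 29 of 31 genes were still higher in replicate 2, against 66.1% and 70.2% of all genes. With DESeq2 size factors or spike-in totals 28 of 31 were, Axin2 being the one that changed side. These scalings were tried on that count after seeing the data. Of 49 alternatives for the main results, 46 left the value within its spread or within 1.5 times, a rule that did not look at direction. With 2 libraries, the sum in 1 library alone always lies within 1 SD of their mean, so those alternatives could not fail. Few counts limit the low ligands, and 2 libraries limit every SD.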

Other observations

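Several members share exon bases with a gene on the opposite strand, and reads from the pair cannot be told apart without strand. Fzd5 shares 1233 bases, or 17.8% of its exons, with Gm38058, which had 2.58 estimated counts in replicate 1 and 5.37 in replicate 2. Sfrp2 shares 16.1% of its exons with Gm26771, which was at 6.89 counts in replicate 1 and 2.83 in replicate 2. Wnt5a shares 4.58% with Gm2670, at 13.33 counts in replicate 1 and 17.11 in replicate 2. The partners of Wnt7b, Wnt11 and Axin2 had 0 counts in both libraries, and Gm26704 beside Fzd6 had 0 in replicate 1 and 5 in replicate 2.

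Some members were divided differently among transcripts in each library. All Fzd6 counts were assigned to Fzd6-202 in replicate 1 and to Fzd6-201 in replicate 2, transcripts of 4077 nt and 4081 nt. Of Wnt11, 61.7% of TPM in replicate 1 and 28.1% in replicate 2 belonged to Wnt11-204, a transcript annotated for nonsense-mediated decay. Of Lrp5, 45.8% of TPM in replicate 1 and 38.4% in replicate 2 belonged to Lrp5-201, its longest coding transcript with counts. The authors' posterior mean TPM averaged 0.42 for Wnt7a (0 counts in replicate 1, 5 in replicate 2) and 0.31 for Wnt16 (0 counts in both).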
